A study of Mus musculus with 6 samples.

Results

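The genes described here are 10 that act on newly made collagen chains in the endoplasmic reticulum (ER): the prolyl 4-hydroxylase alpha subunits P4ha1, P4ha2 and P4ha3, their shared beta subunit P4hb, the lysyl hydroxylases Plod1, Plod2 and Plod3, and the chaperones Serpinh1, Fkbp10 and Crtap. They were chosen by symbol for these roles, with earlier results of these data known. All 10 were found among the 24411 genes of the table and among the 13466 that had enough counts to be tested. RNA came from Achilles tendons, and all mice were 18 weeks old and of strain C57BL/6. In 3 libraries the mice carried Scx-Cre and a gain-of-function form of Piezo1, which encodes a channel opened by force (genotype Scx-Cre/Piezo1 GOF), and in 3 libraries the genotype was WT, for which the labels name no transgene. Scx is a tendon transcription factor gene, so Cre driven by its sequence acts mainly in tendon cells and their precursors, while other cells of a dissected tendon need not carry the active allele. Whether each library is a separate animal is not stated in the labels, and the p-values thus reflect the spread between libraries, which may be technical.

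Collagen chains are hydroxylated before they wind into a helix. Prolyl 4-hydroxylase, built of alpha subunits that hold the catalytic site and beta subunits that keep them soluble, makes the hydroxyproline that keeps the helix stable at body temperature. Lysyl hydroxylases make hydroxylysine, which carries sugars and sets the kind of crosslink that lysyl oxidases later form, and Plod2 is known for modifying the telopeptides at the ends of the chains. Serpinh1 (HSP47) binds the finished helix, Fkbp10 (FKBP65) is a prolyl isomerase that works with it and with Plod2, and Crtap is the helper subunit of the prolyl 3-hydroxylase complex with P3h1 and Ppib. In humans, loss of Serpinh1, Fkbp10 or Crtap causes osteogenesis imperfecta, and loss of Plod2 or Fkbp10 causes Bruck syndrome.

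Of these genes, Plod2 and P4ha1 had the largest fitted fold changes of Piezo1 GOF over WT, at 4.24 and 3.72. Those of their paralogues Plod1, Plod3 and P4ha2 were 1.16, 1.29 and 0.940, and that of P4ha3, at few counts, was 2.60. None of the 10 passed an adjusted p of 0.05 over all genes by edgeR's quasi-likelihood test. Over all tested genes that threshold called 0.0149%. At an unadjusted p under 0.05 the test gave 4 of the 10 as higher (Plod2, P4ha1, Crtap and Fkbp10) and 0 as lower, against 10.2% and 9.59% of all tested genes. In 7 of the 10 every Piezo1 GOF library lay above every WT library, against 13.6% of all tested genes, and in 0 of the 10 was the order the other way, against 12.1%. The median log2 fold change of the 10 was 0.91 (0.56 without WT replicate 2), against -0.004 for all tested genes. By DESeq2, Plod2, P4ha1 and Crtap passed an adjusted p of 0.05, as did 3.46% of the genes it tested as higher. The exact test of edgeR called the same 3 genes, at a background of 3.36% higher, and limma voom with sample quality weights called Plod2, at a background of 0.720% higher.

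Levels are in CPM, counts relative to a library size adjusted with factors from the trimmed mean of M-values (TMM), and log2 fold changes (Piezo1 GOF over WT) are given with their standard error (SE). Total counts were 8131527 to 12631659 in Piezo1 GOF and 8519513 to 17180856 in WT. Piezo1 was at 178, 128 and 152 CPM in Piezo1 GOF and at 144, 115 and 103 CPM in WT. This does not check the labels, since such an allele alters the channel and not necessarily its transcript level. Summed over 22 genes that mark skeletal muscle, 7.66%, 2.84% and 7.06% of the reads counted came from these in Piezo1 GOF replicates 1 to 3 and 8.97%, 16.7% and 14.1% in WT replicates 1 to 3. WT replicate 2 stood apart as the library with the most muscle and the least type I collagen RNA, and it was the lowest of the 6 libraries for 7 of the 10 genes, against 25.2% of all tested genes. The main results are given also without it, and fewer cells of a type and less RNA per cell cannot be told apart in such bulk samples.

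**Figure D1:**
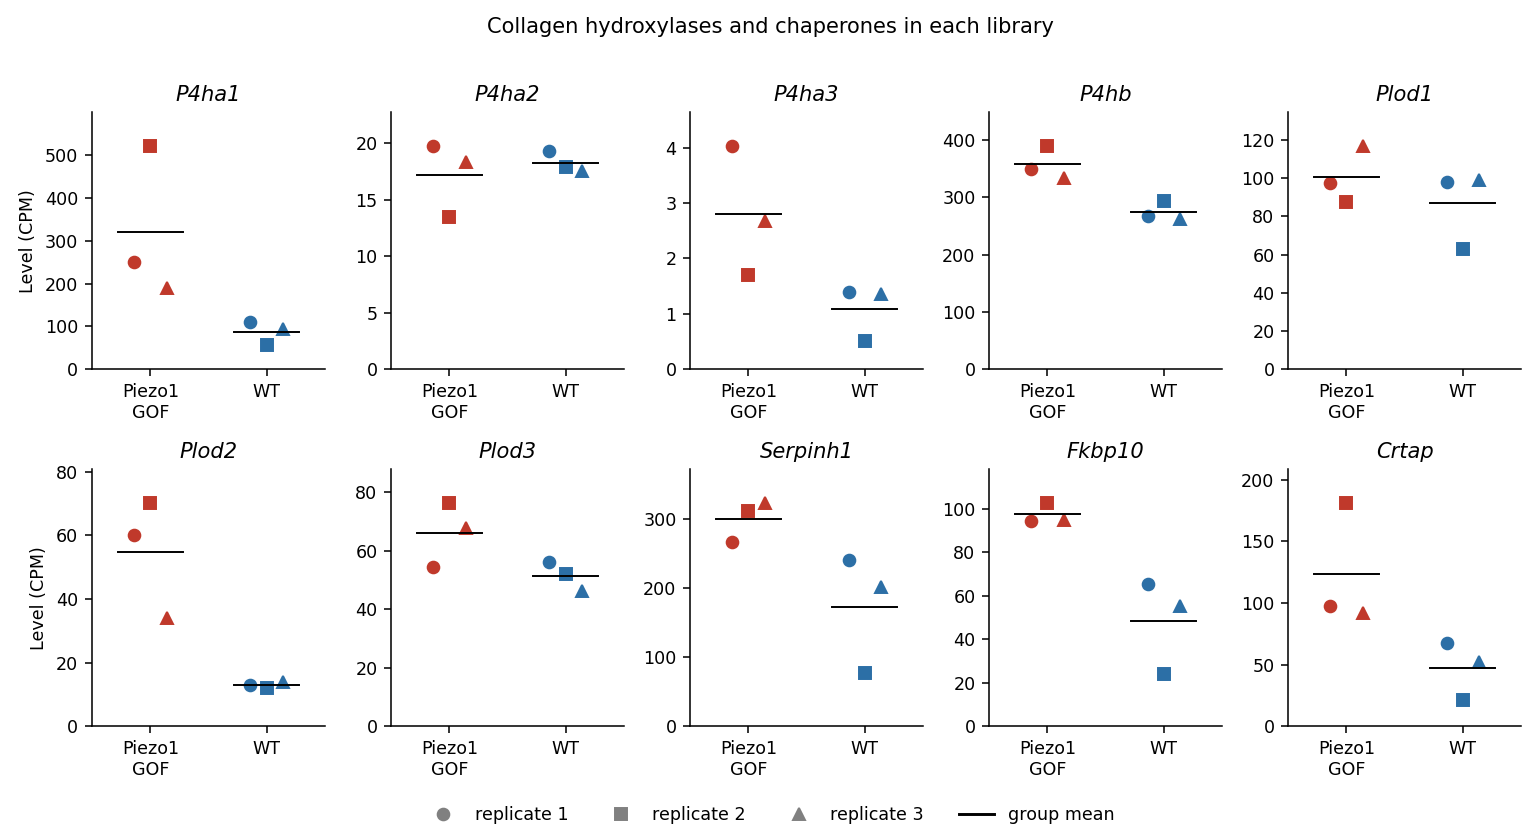
Level in CPM (vertical axis, from 0) of each of the 10 genes in the 3 Piezo1 GOF libraries (left, red) and the 3 WT libraries (right, blue), with marker shapes for the replicate number and a line at the group mean. Plod2 lay between 34.2 and 70.2 CPM in Piezo1 GOF and between 11.9 and 13.8 CPM in WT, while the groups overlapped for P4ha2, Plod1 and Plod3.

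Among the prolyl 4-hydroxylase alpha subunits, P4ha1 and, at few counts, P4ha3 were higher in every Piezo1 GOF library than in any WT library. P4ha2 overlapped. P4ha1, the main alpha subunit of most tissues, was at 252, 522 and 189 CPM in Piezo1 GOF replicates 1 to 3 and at 110, 55.6 and 93.4 CPM in WT replicates 1 to 3. The groups did not overlap, and the highest value was that of Piezo1 GOF replicate 2, the library with the least muscle. Its log2 fold change was 1.90 ± 0.42 (edgeR adjusted p = 0.104). It was 1.66 ± 0.46 without WT replicate 2. With the mean log2 CPM of the skeletal muscle markers (the muscle score) as a covariate it was 1.09 ± 0.26. The share of muscle RNA was lower in every Piezo1 GOF library than in any WT library, so this covariate cannot separate muscle from genotype.

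P4ha2, the alpha subunit of the second isoenzyme, which is abundant in cartilage, was at 19.8, 13.4 and 18.3 CPM in Piezo1 GOF and at 19.3, 17.9 and 17.5 CPM in WT. The groups overlapped, with the lowest value of all in the Piezo1 GOF library that was highest for P4ha1. Its log2 fold change was -0.09 ± 0.23 (edgeR adjusted p = 0.855), and its sign turned with the muscle score as a covariate (0.08) or without Piezo1 GOF replicate 2 (0.08). P4ha3, a further alpha subunit of low abundance, had 31, 17 and 36 counts in Piezo1 GOF and 13, 8 and 12 counts in WT, which are 4.03, 1.71 and 2.67 CPM in Piezo1 GOF and 1.40, 0.511 and 1.36 CPM in WT. At so few counts its log2 fold change of 1.38 ± 0.61 (edgeR adjusted p = 0.253) is imprecise, although the groups did not overlap.

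P4hb, which is also protein disulfide isomerase and folds many secreted proteins, was at 349, 389 and 334 CPM in Piezo1 GOF and at 267, 293 and 262 CPM in WT. The groups did not overlap and each was narrow, with the highest library 1.17 times the lowest in Piezo1 GOF and 1.12 times in WT, yet the log2 fold change was 0.38 ± 0.23 (edgeR adjusted p = 0.381). WT replicate 2 was the highest WT library here, unlike for P4ha1.

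The proximal promoters of P4ha1, P4ha2 and P4hb are shown because these genes supply alternative alpha subunits and the common beta subunit of the same enzyme and had different fold changes. Each is the 250 bases upstream of the RefSeq start site (GRCm38.p6, the same assembly as mm10), at chr10:59323046-59323295 on the plus strand for P4ha1, chr11:54100674-54100923 on the plus strand for P4ha2 and chr11:120573254-120573503 on the minus strand for P4hb. They run 5′ to 3′ on the gene's strand. Capitals mark matches to ACGTG or its reverse complement CACGT, a form of the core of the hypoxia-response element. The form GCGTG was not searched and is not marked, so the matches do not count all such cores.
P4ha1: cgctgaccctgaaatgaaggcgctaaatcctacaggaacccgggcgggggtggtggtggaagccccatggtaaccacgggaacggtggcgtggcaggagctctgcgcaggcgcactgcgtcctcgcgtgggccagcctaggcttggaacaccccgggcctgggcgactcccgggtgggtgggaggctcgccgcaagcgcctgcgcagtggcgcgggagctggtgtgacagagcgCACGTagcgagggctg
P4ha2: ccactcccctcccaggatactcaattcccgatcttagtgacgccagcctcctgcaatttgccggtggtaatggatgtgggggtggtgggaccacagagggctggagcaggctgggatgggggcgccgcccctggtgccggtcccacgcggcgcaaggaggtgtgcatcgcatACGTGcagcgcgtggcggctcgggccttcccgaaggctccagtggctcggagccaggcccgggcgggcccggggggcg
P4hb: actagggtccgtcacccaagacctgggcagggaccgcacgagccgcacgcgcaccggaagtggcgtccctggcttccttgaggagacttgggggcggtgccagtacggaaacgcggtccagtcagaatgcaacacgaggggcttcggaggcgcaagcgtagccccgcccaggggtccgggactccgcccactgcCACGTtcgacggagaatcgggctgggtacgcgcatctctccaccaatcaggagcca
Each of the 3 windows held a single match to ACGTG or CACGT. It began 16 bases upstream of the start site in P4ha1, 78 in P4ha2 and 56 in P4hb. Of the 8 genes with a promoter in the RefSeq table (not Plod2 and Fkbp10), 5 held a match, the others being Plod3 and Serpinh1, and 16.6% of 27025 promoters of the same length did. Whether the matches bear on the levels of these genes was not tested. The 8 windows held 53.6% to 70.0% of G and C, and the 16.6% was not matched for this, so no excess can be read from it. In the Plod3 window 208 of the 250 bases are exonic in the annotation. CCAAT or its reverse complement ATTGG was in the windows of P4hb and Plod3 (34.5% of all promoters). The heat shock core GAANNTTC, searched because Serpinh1 is also a heat shock protein, was in 0 of the 8 windows (6.78% of all promoters), which says only that these letters are not there.

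Within the alpha subunits, P4ha1 took a larger share in Piezo1 GOF. To compare levels between genes, counts were divided by the length of a gene's merged exons. P4ha1 held 93.2%, 97.9% and 92.4% of the summed alpha subunit level in Piezo1 GOF and 88.3%, 81.7% and 87.5% in WT, and the groups did not overlap. The difference of 8.70 percentage points (6.62 without WT replicate 2) had a two-sided exact permutation p of 0.1, the smallest that 3 against 3 libraries allow. With the length of the principal transcript in place of merged exons, which shortens P4ha2 most, the difference was 17.9 points. The summed alpha subunit level relative to P4hb, on the log2 scale, was -0.90, -0.07 and -1.23 in Piezo1 GOF and -1.63, -2.63 and -1.82 in WT. The difference of 1.29 (0.99 without WT replicate 2; exact permutation p = 0.1) came with groups that did not overlap: the alpha subunit level was nearer to that of the beta subunit in all 3 Piezo1 GOF libraries. These shares are taken within a library and do not depend on library scaling.

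Among the lysyl hydroxylases, Plod2 alone had groups that did not overlap. It was at 60.1, 70.2 and 34.2 CPM in Piezo1 GOF and at 13.0, 11.9 and 13.8 CPM in WT. The WT libraries lay close together, WT replicate 2 among them, and the lowest Piezo1 GOF library was above the highest WT library by more than the whole WT range. The log2 fold change was 2.09 ± 0.29, just short of the threshold by edgeR (adjusted p = 0.0572), and had the eighth smallest p of all tested genes. The edgeR adjusted p was 0.0391 without WT replicate 1, where 1.54% of all genes passed, and between 0.0832 and 0.188 without any 1 of the other 5 libraries, and the DESeq2 adjusted p was 2.59e-07. The log2 fold change was 2.03 ± 0.34 without WT replicate 2 and 1.82 ± 0.32 with the muscle score as a covariate.

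Plod1, the lysyl hydroxylase known for acting on the helical part of the chains, was at 97.7, 87.5 and 117 CPM in Piezo1 GOF and at 98.2, 62.9 and 99.1 CPM in WT (log2 fold change 0.22 ± 0.24; edgeR adjusted p = 0.644). Its groups overlapped, and without WT replicate 2 the value was 0.03 ± 0.23. Plod3, which also adds sugars to hydroxylysine, was at 54.2, 76.2 and 67.8 CPM in Piezo1 GOF and at 56.0, 51.9 and 46.3 CPM in WT (0.36 ± 0.21; edgeR adjusted p = 0.351). Its groups overlapped through Piezo1 GOF replicate 1 and WT replicate 1.

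Plod2 also made up a larger share of the lysyl hydroxylase family in each Piezo1 GOF library. Per length, Plod2 held 29.7%, 30.4% and 16.4% of the summed Plod level in Piezo1 GOF and 8.23%, 9.61% and 9.33% in WT. The groups did not overlap, and the difference of 16.45 percentage points (16.7 without WT replicate 2) had an exact permutation p of 0.1, the smallest possible. Plod1 held 38.4%, 30.2% and 44.7% in Piezo1 GOF and 49.5%, 40.4% and 53.3% in WT, with overlap (p = 0.2 by the same exact test), and Plod3 held 31.9% to 39.4% in Piezo1 GOF and 37.3% to 49.96% in WT (p = 0.3 by the same exact test). Plod2 was the least abundant of the family in all 3 WT libraries. Per merged-exon length it was also the least abundant in Piezo1 GOF, except in replicate 2, where it held 30.4% and Plod1 30.2%. This order in Piezo1 GOF depends on the length used. In counts not divided by length, Plod2 was at 0.803 of Plod1 and 0.921 of Plod3 in Piezo1 GOF replicate 2. It was at 1.11 times Plod3 in Piezo1 GOF replicate 1.

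**Figure D2:**
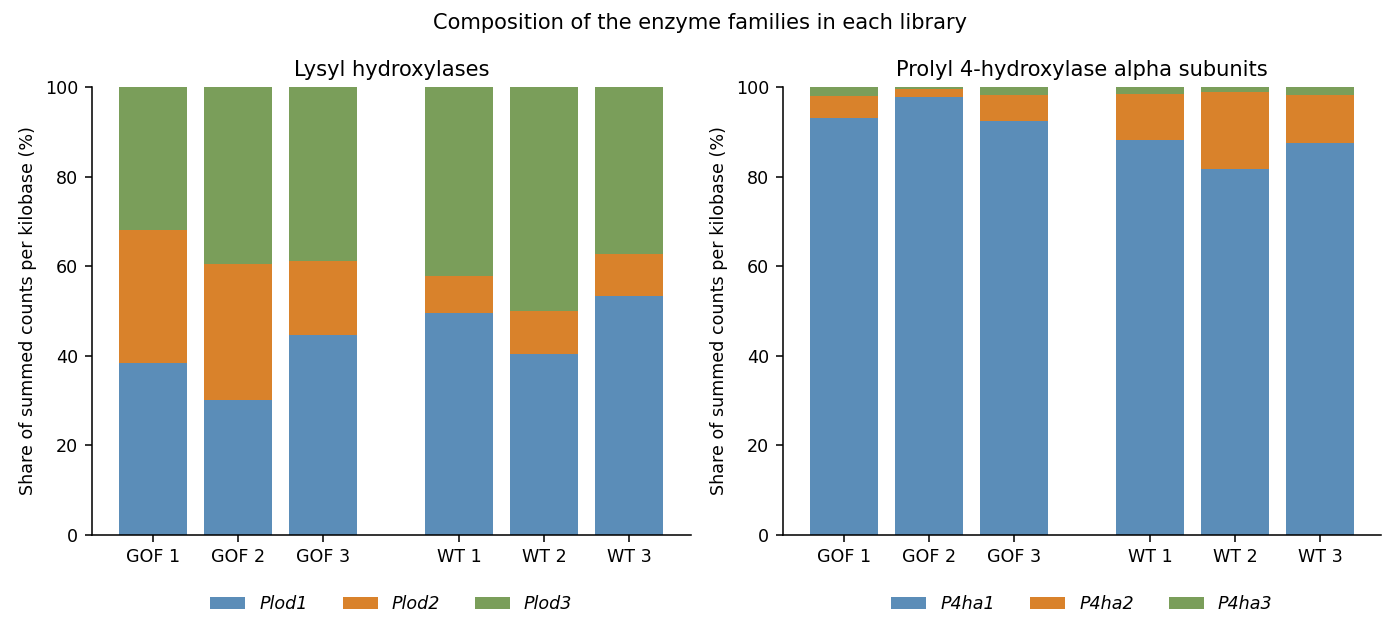
Share (vertical axis, percent of summed counts per kilobase of merged exons) of each lysyl hydroxylase (left panel) and each prolyl 4-hydroxylase alpha subunit (right panel) in each library, with the 3 Piezo1 GOF libraries left of the 3 WT libraries. The Plod2 segment lay between 16.4% and 30.4% in Piezo1 GOF and between 8.23% and 9.61% in WT.

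The chaperones were higher in every Piezo1 GOF library than in any WT library, and for each of them WT replicate 2 lay far below the other WT libraries. Serpinh1 was at 267, 311 and 324 CPM in Piezo1 GOF and at 241, 76.6 and 202 CPM in WT. Its groups did not overlap, but WT replicate 2 was at 0.346 of the mean of the other WT libraries, and the log2 fold change of 0.80 ± 0.39 (edgeR adjusted p = 0.293) was 0.44 ± 0.26 without that library. Fkbp10 was at 94.5, 103 and 95.0 CPM in Piezo1 GOF and at 65.5, 23.9 and 55.5 CPM in WT. The Piezo1 GOF libraries lay within 1.09-fold of each other, all above WT. The log2 fold change was 1.01 ± 0.34 (edgeR adjusted p = 0.180) and 0.69 ± 0.21 without WT replicate 2. Crtap was at 97.5, 181 and 92.1 CPM in Piezo1 GOF and at 67.1, 21.3 and 52.5 CPM in WT (1.40 ± 0.43; edgeR adjusted p = 0.165; 1.05 ± 0.35 without WT replicate 2). Like P4ha1 it was highest in Piezo1 GOF replicate 2 and lowest in WT replicate 2, and with the muscle score as a covariate its value was 0.66 ± 0.28.

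**Figure D3:**
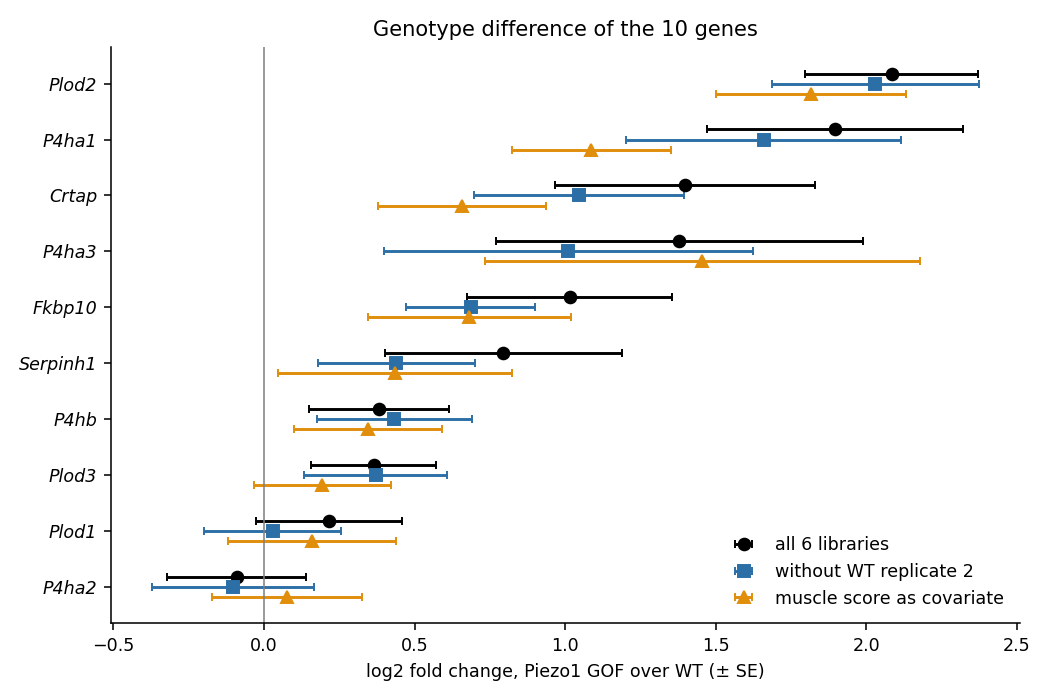
Log2 fold change of Piezo1 GOF over WT (horizontal axis, bars are ± SE) for each of the 10 genes with all 6 libraries (black circles), without WT replicate 2 (blue squares) and with the muscle score as a covariate (orange triangles). Plod2 was at 1.82 or more in all 3 fits, P4ha1 lay between 1.09 and 1.90, and Plod1, Plod3 and P4ha2 lay between -0.10 and 0.37.

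The order of mean levels per length differed between the genotypes in the place of Plod2, which stood above P4ha2 in every Piezo1 GOF library and below it in every WT library. The means of P4ha1 and Crtap also changed places, but not in every library. P4ha1 was below Crtap in Piezo1 GOF replicate 3 (45.99 against 51.96) and above it in WT replicate 2 (13.52 against 12.04). In Piezo1 GOF the mean CPM per kilobase ran from P4hb (125 ± 10.01; SD, n = 3) and Serpinh1 (123 ± 12.2) through P4ha1 (78.0 ± 42.9), Crtap (69.7 ± 28.1), Fkbp10 (33.2 ± 1.56), Plod1 (14.9 ± 2.20), Plod3 (14.6 ± 2.46) and Plod2 (10.2 ± 3.45) to P4ha2 (2.75 ± 0.531) and P4ha3 (0.894 ± 0.373). In WT it ran from P4hb (95.9 ± 5.78; SD, n = 3) and Serpinh1 (70.9 ± 35.2) through Crtap (26.5 ± 13.2), P4ha1 (21.0 ± 6.74), Fkbp10 (16.5 ± 7.41), Plod1 (12.8 ± 3.05) and Plod3 (11.4 ± 1.08) to P4ha2 (2.93 ± 0.151), Plod2 (2.395 ± 0.173) and P4ha3 (0.347 ± 0.160). Neighbours whose means differed by more than the sum of their SDs were, in Piezo1 GOF, Crtap and Fkbp10, Fkbp10 and Plod1, Plod2 and P4ha2, and P4ha2 and P4ha3. In WT they were Plod3 and P4ha2, P4ha2 and Plod2, and Plod2 and P4ha3, and the other neighbours lay within their spread. With the length of the principal transcript, Plod1 stood above P4ha1 and Fkbp10 in WT and Serpinh1 above P4hb in Piezo1 GOF, and the other places were as given.

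Ratios to type I collagen, the main substrate, mostly restate the collagen difference, as they do for most tested genes. Col1a2, which with Col1a1 forms type I collagen, was at 6963, 13787 and 7725 CPM in Piezo1 GOF and at 3429, 171 and 2222 CPM in WT (log2 fold change 2.29 ± 0.91; edgeR adjusted p = 0.221). Divided by the summed Col1a1 and Col1a2 level of the same library, per length, 7 of the 10 genes were lower in every Piezo1 GOF library than in any WT library, against 88.2% of all tested genes, so the count is no result about the 10. In 0 of the 10 was the order the other way, against 0.0223%. Each of the 7 had an exact permutation p of 0.1. Serpinh1, which binds this collagen, stood at a log2 ratio of -3.50 ± 0.33 in Piezo1 GOF and -1.60 ± 1.38 in WT (SD, n = 3), a difference of -1.90 that was -1.11 without WT replicate 2. P4hb differed by -2.47 and without that library by -1.12, Plod1 by -2.62 and -1.53, and Crtap by -1.38 and -0.56.

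The ratios of P4ha1, P4ha3 and Plod2 to type I collagen overlapped between the genotypes (exact permutation p = 0.5, 0.2 and 0.9). For P4ha1 the log2 ratio was -4.32, -3.85 and -4.71 in Piezo1 GOF and -4.41, -1.22 and -4.14 in WT, and without WT replicate 2 the difference was -0.02. For Plod2 it was -6.78, -7.13 and -7.57 in Piezo1 GOF and -7.87, -3.84 and -7.29 in WT, a difference of -0.83 with all libraries and of 0.42 without WT replicate 2. WT replicate 2 had the highest ratio for each of the 10 genes, since its type I collagen level was lower than that of the other libraries by a larger factor than any of theirs.

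**Figure D4:**
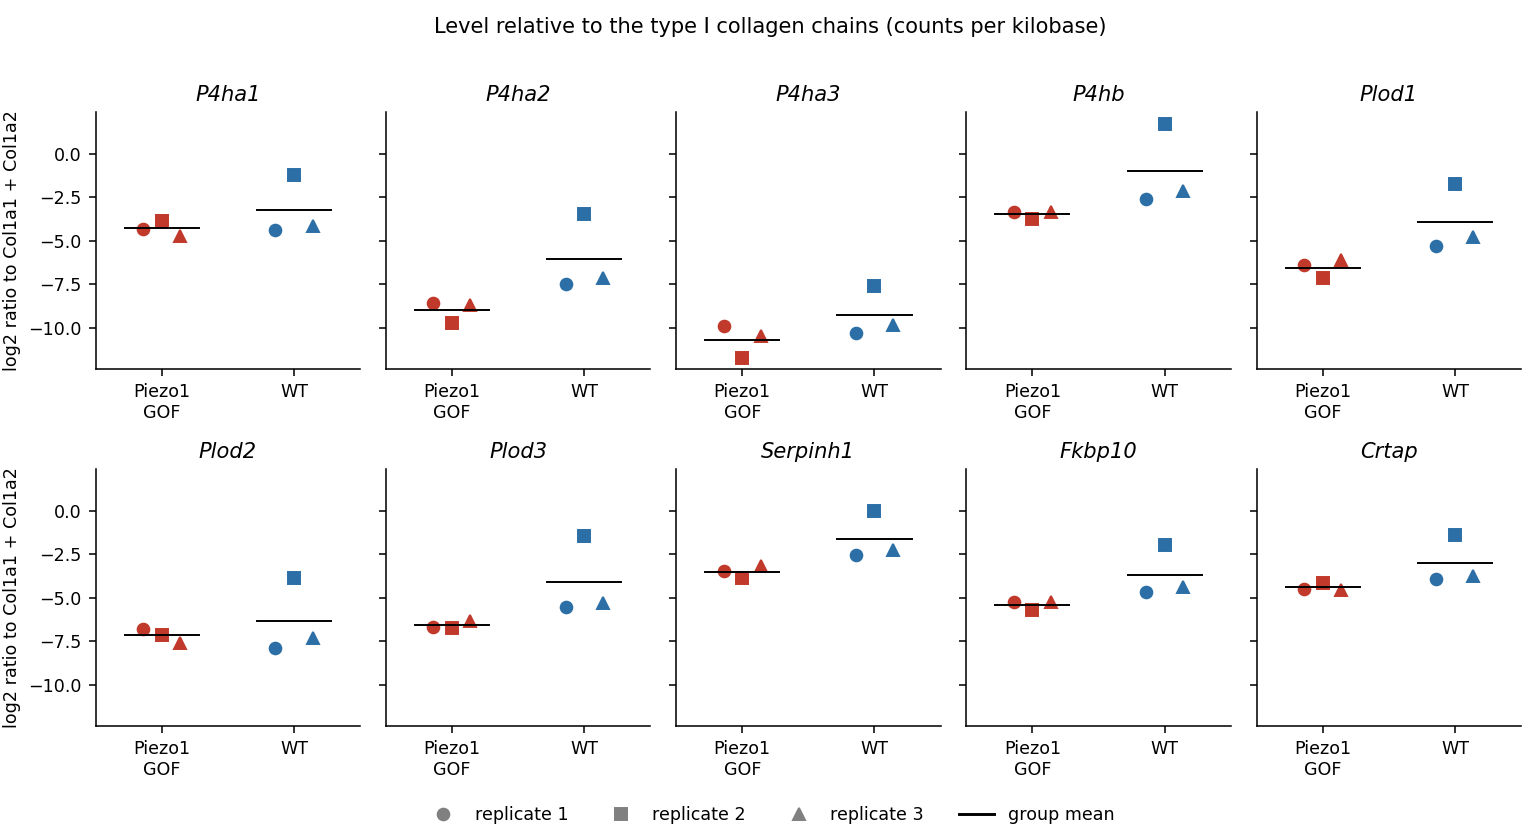
Log2 ratio of each gene to the summed Col1a1 and Col1a2 level (vertical axis, counts per kilobase of merged exons) in the 3 Piezo1 GOF libraries (left, red) and the 3 WT libraries (right, blue), with a line at the group mean. WT replicate 2 (blue square) was the highest point in each panel, and the remaining WT libraries overlapped with Piezo1 GOF for P4ha1, P4ha3 and Plod2.

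A further list, mostly of other genes that act on collagen in the ER, had a similar median. It also held P4htm, Sparc and the channel gene Tmem38b, which need not act on the chains there. Of its 13 genes, 9 had positive and 4 negative fold changes. The median log2 fold change was 0.75 (0.48 without WT replicate 2), and 0 passed by edgeR over all genes. At an unadjusted p under 0.05, 7 were higher and 1 lower. Ppib, the isomerase that joins Crtap in the prolyl 3-hydroxylase complex, was at 115, 149.8 and 98.0 CPM in Piezo1 GOF and at 75.9, 46.6 and 55.4 CPM in WT (1.03 ± 0.26; edgeR adjusted p = 0.126). Fkbp14 (1.53 ± 0.35) and Fkbp9 (1.57 ± 0.40), further isomerases of the Fkbp10 family, had edgeR adjusted p-values of 0.109 and 0.127. Tmem38b, a cation channel of the ER membrane whose loss in humans also causes osteogenesis imperfecta, was at 50.3, 72.0 and 64.3 CPM in Piezo1 GOF and at 91.7, 127 and 127 CPM in WT (-0.89 ± 0.23; edgeR adjusted p = 0.128).

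General folding and export genes had smaller medians. The 13 protein disulfide isomerases and ER chaperones had a median of 0.32, and 3 of them (0 lower) reached an unadjusted p under 0.05 as higher and 0 were past the edgeR threshold over all genes. The oxidoreductases Txndc5 (0.72 ± 0.30; edgeR adjusted p = 0.232), Pdia3 (0.66 ± 0.25; 0.205) and Pdia4 (0.59 ± 0.26; 0.252) had the 3 smallest p-values, and the values of P4hb lay within the range of this group. Of 11 procollagen export genes, Mia2 had 0 counts in all libraries, and the 10 tested had a median of 0.21, of which 3 were higher and 2 lower with an unadjusted p under 0.05 and 0 past the threshold. Creb3l1, a transcription factor of secretory cells that is known to act on collagen genes, was at 91.0, 106 and 49.8 CPM in Piezo1 GOF and at 32.2, 10.8 and 21.4 CPM in WT (1.94 ± 0.42; edgeR adjusted p = 0.104). Sec24d, a coat protein of vesicles that leave the ER, had a value of 1.03 ± 0.31 (edgeR adjusted p = 0.158), Sec31a of 0.64 ± 0.23 (0.198) and the coat GTPase Sar1b of -0.68 ± 0.25 (0.198).

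The 9 substrate collagen chains all lay above 0, at a median of 1.095 (0.72 without WT replicate 2), and 5 were higher at an unadjusted p under 0.05 and 0 past the edgeR threshold. The 10 genes of cofactor supply (iron, ascorbate and 2-oxoglutarate) had a median of 0.06, of which 2 were higher and 3 lower with an unadjusted p under 0.05 and 0 past the edgeR threshold. The higher ones were Slc39a13, a zinc transporter of the secretory pathway that connective tissue needs, at 122, 120.3 and 96.8 CPM in Piezo1 GOF and 66.5, 27.7 and 53.3 CPM in WT (1.20 ± 0.32; edgeR adjusted p = 0.130), and Slc2a3, a sugar transporter that also takes up oxidised ascorbate (1.19 ± 0.44; 0.201). Ogdh (-0.96 ± 0.37) and Idh2 (-1.13 ± 0.43), mitochondrial enzymes, had negative values, which were -0.58 ± 0.32 and -0.61 ± 0.39 with the muscle score as a covariate.

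Some of the 10 genes, P4ha1 and Plod2 among them, are known targets of the hypoxia-inducible factors. The part of hypoxia in the levels of the 10 was not tested. Of 14 other genes induced by hypoxia, 3 had positive and 11 negative fold changes, against 49.7% positive over all tested genes. Their median was -0.42 (-0.39 without WT replicate 2). At an unadjusted p under 0.05 by edgeR, 0 were higher and 3 lower, against 10.2% and 9.59% of all tested genes. The edgeR threshold over all genes was passed by 0. The oxygen sensor Egln1 (-0.89 ± 0.28; edgeR adjusted p = 0.170), the pyruvate dehydrogenase kinase Pdk1 (-0.81 ± 0.35; 0.249) and the mitophagy receptor Bnip3 (-0.96 ± 0.43; 0.252) had the 3 smallest p-values. With the muscle score as a covariate their log2 fold changes were -0.54 ± 0.27, -0.39 ± 0.35 and -0.26 ± 0.38. The part of muscle RNA in them was not tested.

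**Figure D5:**
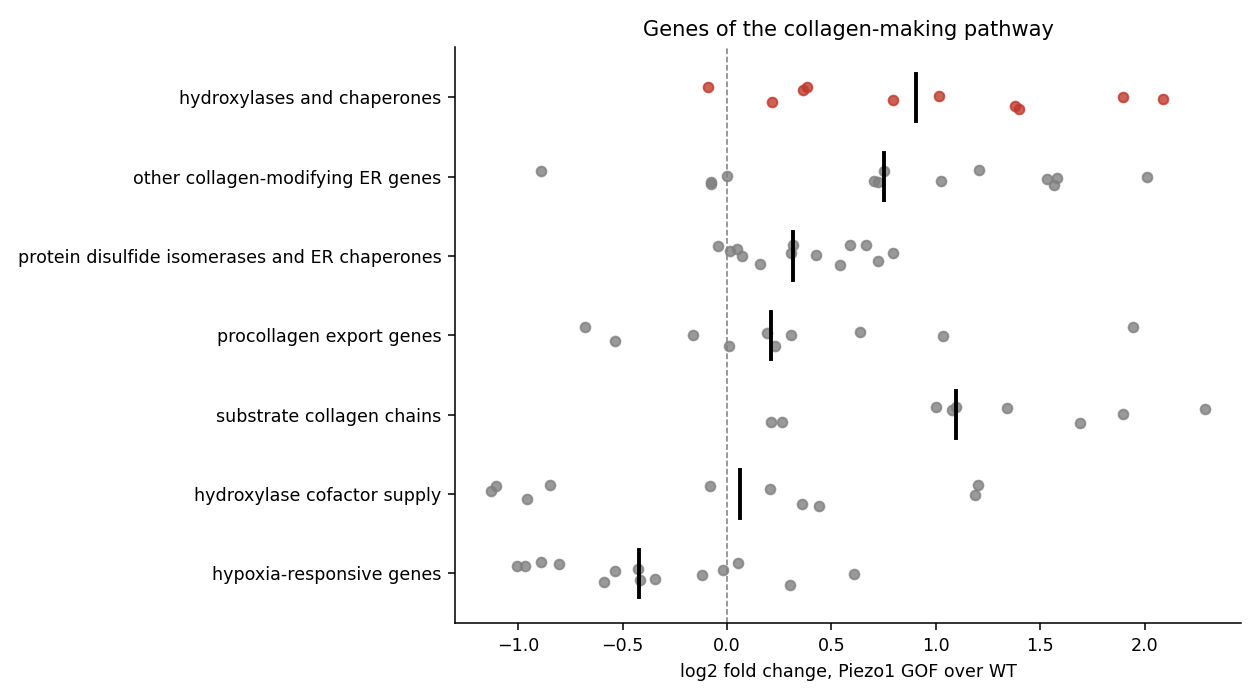
Log2 fold change of Piezo1 GOF over WT (horizontal axis) for each tested gene of the 10 hydroxylases and chaperones (red) and of 6 further lists of the pathway (grey), with a black line at each list's median. The medians ran from 1.095 for the substrate collagen chains through 0.91 for the hydroxylases and chaperones to -0.42 for the hypoxia-responsive genes.

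Markers of the cell types in a dissected tendon had unequal levels in the libraries too, and their part in the results was not tested. The fits with the muscle score do not test it, since the share of muscle RNA and genotype went together. Of 11 tenocyte markers all were tested and 10 had positive fold changes, with a summed level of 18405 to 33305 CPM in Piezo1 GOF and 5065 to 10081 CPM in WT. The 22 muscle markers were all tested and 21 had negative values, with 25818 to 80964 CPM in Piezo1 GOF and 82059 to 183080.1 CPM in WT. All 14 macrophage markers had positive values (713 to 880 CPM in Piezo1 GOF and 191 to 301 CPM in WT), as had 6 of the 7 tested bone markers of 12 (1721 to 3232 CPM in Piezo1 GOF and 93.3 to 410 CPM in WT) and 8 of the 10 tested cartilage markers of 14 (7451 to 21333 CPM in Piezo1 GOF and 677 to 3926 CPM in WT). Of the endothelial markers 8 of 10 had negative values (581 to 863 CPM in Piezo1 GOF and 839 to 1529 CPM in WT), and so had 9 of the 10 tested pericyte and smooth muscle markers of 11 (1392 to 2481 CPM in Piezo1 GOF and 4023 to 6334 CPM in WT). All 8 adipocyte markers had positive values (538 to 1349.9 CPM in Piezo1 GOF and 268 to 596 CPM in WT), as had the 4 tested of 7 erythroid markers (21.0 to 71.8 CPM in Piezo1 GOF and 11.2 to 36.0 CPM in WT).

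The genes closest in pattern to the 10 were found among tested genes with a mean of at least 5 CPM by Pearson's r with the mean standardised log2 CPM profile of the 10 over the 6 libraries, which share genotype and muscle content. They were Rab7b (r = 0.998), Gusb (0.995), Copz2 (0.995), Evi2a (0.995) and Klhdc8a (0.995). Rab7b, the closest, was at 22.4, 24.7 and 23.2 CPM in Piezo1 GOF and at 13.4, 6.77 and 11.9 CPM in WT. Copz2, a coat subunit of vesicles between Golgi and ER, was at 44.3, 47.4 and 41.2 CPM in Piezo1 GOF and at 29.8, 17.4 and 26.2 CPM in WT. Whether the 5 share a function was not tested. Among the 10 themselves, r with the same profile ran from 0.978 for Fkbp10 and 0.943 for Crtap to 0.682 for Plod3 and -0.222 for P4ha2. P4ha2 was the only gene with a negative r. Each gene is part of this profile, so a positive r is in part built in. The profile was lowest in WT replicate 2 (-1.195), and r is thus no measure of a genotype difference.

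Some of these genes overlap others on the genome, and the strand setting of the counting is not given in the sources used here. Plod3 (ENSMUSG00000004846.10; chromosome 5, 136987019 to 136996648 of mm10, plus strand) shares 529 exonic bases with Znhit1 on the opposite strand, which was at 7.27 to 9.33 CPM in Piezo1 GOF and 5.77 to 6.87 CPM in WT. Fkbp10 (ENSMUSG00000001555.10; chromosome 11, 100415697 to 100424824, plus strand) shares 193 exonic bases with Nt5c3b on the opposite strand, which was at 9.36 to 13.1 CPM in Piezo1 GOF and 4.02 to 9.05 CPM in WT. Reads from these stretches cannot be told apart, but both partners were low beside the genes they overlap. Plod2 (ENSMUSG00000032374.14; chromosome 9, 92542223 to 92608428, plus strand) overlaps Gm38391 by 346 exonic bases on the opposite strand, which is not analysed here. P4ha1 (ENSMUSG00000019916.14; chromosome 10, 59323296 to 59373304, plus strand) overlaps no other gene of the annotation.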

How the data were processed

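RNA-seq of 6 Achilles tendon libraries, 3 Scx-Cre/Piezo1 GOF and 3 WT, was made with the GenNext RamDA-seq kit from total RNA, per the labels' protocols. The values deposited by the authors are expected counts of each gene, with no scaling. The tools were bcl2fastq, STAR, RSEM and edgeR on mm10, per the submitters' processing notes. The sources used here give neither annotation nor strand setting. Groups were taken from the labels.

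Expected counts were rounded. The filterByExpr function of edgeR with a minimum count of 10 kept 13466 genes. After TMM scaling (factors 0.897 to 1.102), genotypes were compared by the quasi-likelihood test of edgeR, adjusted over all tested genes by the Benjamini-Hochberg method, at a threshold of 0.05. The SE is the absolute log2 fold change divided by the square root of F. The common dispersion was 0.113. Coordinates and exon lengths came from GENCODE mouse release 21 (mm10) and promoters from RefSeq (GRCm38.p6). Shares and ratios were tested by exact permutation, two-sided.

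The genes and lists (189 entries, 3 under a synonym) were chosen with earlier results of these data known. The text names all 10 genes, up to 4 genes of smallest p per pathway list, and the 5 genes closest in pattern. Mia2 is named for its count of 0, P4htm and Sparc to describe their list, and Gm38391, Znhit1 and Nt5c3b for their position. Alternatives were other scalings, filters and tests, a replicate block, a muscle covariate, leaving out each library, and the principal transcript's length, the last added after seeing the data. No library was a copy of another (chi-square per degree of freedom 41.1 to 142 within a genotype). Software was R 4.3.3, edgeR 4.0.16, limma 3.58.1, DESeq2 1.42.0, Python 3.11.15, matplotlib 3.10.9, pandas 2.3.3, scipy 1.17.1 and numpy 2.4.6.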

Additional observations from a re-analysis of the deposited data

How the results depend on the processing

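With 3 libraries per genotype, the number of genes called differed between tests and settings. Over all genes edgeR called 2 with all libraries, 0 with total counts only, with the muscle score as a covariate or with the replicate block, 165 without a count filter, 151 at an adjusted p threshold of 0.10, 882 by DESeq2, 685 by the exact test and 116 by limma voom. Of the 10 genes it called 0, against 2 (Plod2 and P4ha1) without a count filter, 1 (Plod2) at the threshold of 0.10, 3 by DESeq2, 3 by the exact test and 1 by limma voom. Leaving out each library in turn gave 0 to 207 genes over all, 0 to 1 of the 10 (Plod2, without WT replicate 1) and a median log2 fold change of the 10 between 0.56 and 1.21. That median was 0.91 with all libraries and 0.55 with the muscle score as a covariate. Of 179 values of single genes over 18 alternatives, 2 changed sign, both for P4ha2, to 0.076 with the muscle score and over a range of -0.201 to 0.079 when a library was left out. P4ha3 had too few counts at a minimum count of 50. The difference of Plod2 relative to type I collagen lay between -1.60 and 0.42 when a library was left out and changed sign without WT replicate 2. The cause of these changes was not tested.

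Libraries with the same replicate number did not deviate together (correlations of -0.207, -0.137 and -0.053 for numbers 1 to 3). The labels state no pairing. These correlations cannot exclude one, since deviations from the mean of so few libraries are bound to each other. With the replicate block the median log2 fold change of the 10 was 1.03 and 0 of them were called.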
